A study of Mus musculus with 24 samples.

Results

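The genes described here make cholesterol and fatty acids or control that synthesis through the sterol regulatory element binding proteins (SREBPs). They are 36 gene symbols named by step of the pathway. Each was read from the probe set that carried only that symbol and had the highest mean over all arrays. Of the 36, 35 were measured, among 18193 genes with a probe set of their own; Acat2, which condenses acetyl-CoA, had none listed in the annotation used. The RNA came from the forebrain of TgCRND8 mice, which carry a human amyloid precursor protein (APP) transgene with the Swedish and Indiana changes (APPSwe/Ind), and of their wild-type littermates, called controls below. Both genotypes were taken at 70, 80 and 150 days of age, with 4 mice in each of the 6 groups and 1 array per mouse. Olfactory bulb, cerebellum and brainstem had been cut away. Nothing in the sources used here gives the promoter that drives the transgene, the cells in which it is active or the sex of the mice.

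The brain makes its own cholesterol, since circulating lipoproteins do not cross the blood-brain barrier, and oligodendrocytes and astrocytes are its main producers. Acetyl-CoA is built into mevalonate, then into isoprenoid units, squalene and lanosterol, and lanosterol is trimmed to cholesterol by a chain of demethylations and reductions. SREBP2, made by Srebf2, mainly drives the sterol genes and SREBP1, made by Srebf1, mainly the fatty acid genes. When sterol in the endoplasmic reticulum is low, the escort protein SCAP carries SREBPs to the Golgi, where the site-1 and site-2 proteases (Mbtps1 and Mbtps2) free the active factor; when sterol is high, INSIG proteins hold SCAP back. The active factor binds sterol regulatory elements, usually together with NF-Y, which binds CCAAT, or Sp1.

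Promoters of the members were searched for these elements, since SREBPs act through them; that all members are SREBP targets is not assumed. The RefSeq promoters used (GRCm38.p6) span 250 bases before to 50 bases after a gene's start, and at least 1 was listed for 29 of the 36 members. None was listed for Fdps, Fdft1, Sqle, Stard4, Scd1, Scd2 or Fads1. The core of the classical sterol regulatory element, TCACNCCAC, was found on either strand in 1 of the 29 members, Hmgcs1, against 1.46% of the 14452 measured genes with a promoter. CCAAT was found in 22 of the 29 (75.9%), against 42% of measured genes, and the Sp1 box GGGCGG in 23 (79.3%), against 57.3%. The 250 bases before the start are printed for Hmgcs1, which holds all 3 motifs, and for Msmo1 and Hsd17b7. The last 2 were chosen after their values were seen, as the other members with a listed promoter whose arrays did not overlap between genotypes at day 150. Capitals mark TCACNCCAC, and CCAAT on either strand (ATTGG when on the other strand). Hmgcs1 lies at chr13:119690101-119690350 (plus strand), Msmo1 at chr8:64733579-64733828 (minus) and Hsd17b7 at chr1:169969206-169969455 (minus).
Hmgcs1: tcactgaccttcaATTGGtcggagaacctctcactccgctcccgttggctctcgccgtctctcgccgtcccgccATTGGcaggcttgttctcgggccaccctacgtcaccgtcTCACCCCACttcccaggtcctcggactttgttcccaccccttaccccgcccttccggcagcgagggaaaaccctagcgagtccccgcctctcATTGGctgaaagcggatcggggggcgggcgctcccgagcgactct
Msmo1: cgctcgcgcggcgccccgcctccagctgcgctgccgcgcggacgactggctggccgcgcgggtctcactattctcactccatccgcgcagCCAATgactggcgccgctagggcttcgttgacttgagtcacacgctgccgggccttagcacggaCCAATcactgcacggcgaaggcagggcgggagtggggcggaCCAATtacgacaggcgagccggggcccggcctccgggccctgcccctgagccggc
Hsd17b7: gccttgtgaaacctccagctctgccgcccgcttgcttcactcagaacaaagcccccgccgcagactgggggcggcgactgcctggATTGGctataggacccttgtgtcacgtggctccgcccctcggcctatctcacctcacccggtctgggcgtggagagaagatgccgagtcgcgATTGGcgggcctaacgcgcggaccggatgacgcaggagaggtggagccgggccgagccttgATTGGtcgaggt
In Hmgcs1 the sterol element match spans bases 137 to 129 before the start and lies between CCAAT matches that begin 176 and 45 bases before it. All 3 stretches hold 3 CCAAT matches each. In Msmo1 they begin 160, 96 and 55 bases before the start, and in Hsd17b7 165, 73 and 12 bases before it. A match is a description of letters and shows no binding.

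The values are log2 signals as deposited, and array medians ran from 4.28 to 4.38. A level belongs to its own probe set, so levels are compared between arrays and not between genes. Markers of forebrain neurons were bright in every group (Snap25 averaged 11.7 over all arrays and Camk2a 10.8). Xist, a transcript of female cells, was low in 5 arrays, 1 of the control arrays of day 70 and 2 of each genotype at day 80, and both day 150 groups had none. Pituitary markers (Prl, Gh and Pomc) stood apart in single TgCRND8 arrays, with a mean 3.72 log2 above the 24-array mean in TgCRND8 replicate 4 of day 150. Limma with Benjamini-Hochberg adjustment over all 18193 genes called a gene at adjusted p under 0.05. In bulk tissue, fewer cells of a type and less RNA per cell cannot be told apart.

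At day 150 most members read higher in TgCRND8 than in control forebrain, and differences were larger for sterol enzymes than for fatty acid genes. Of 35 members, 31 were higher, where 50.1% of all genes were, and the median difference was 0.10 log2 against 0.00044 over all genes. The 18 sterol synthesis enzymes were higher in 17 cases with a median of 0.18, while the 4 fatty acid synthesis genes had a median of 0.030 and the 5 desaturation and elongation genes 0.064. By limma with Benjamini-Hochberg adjustment 0 of 35 members passed, and 0.121% of all genes did. At unadjusted p under 0.05 there were 10 higher members, with 1.97% of all genes at that mark and higher, and 0 lower members, with 2.4% of all genes. These counts describe the members and are not a test of them together. Quantile normalization left 27 of 35 higher with a median of 0.075.

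**Figure D1:**
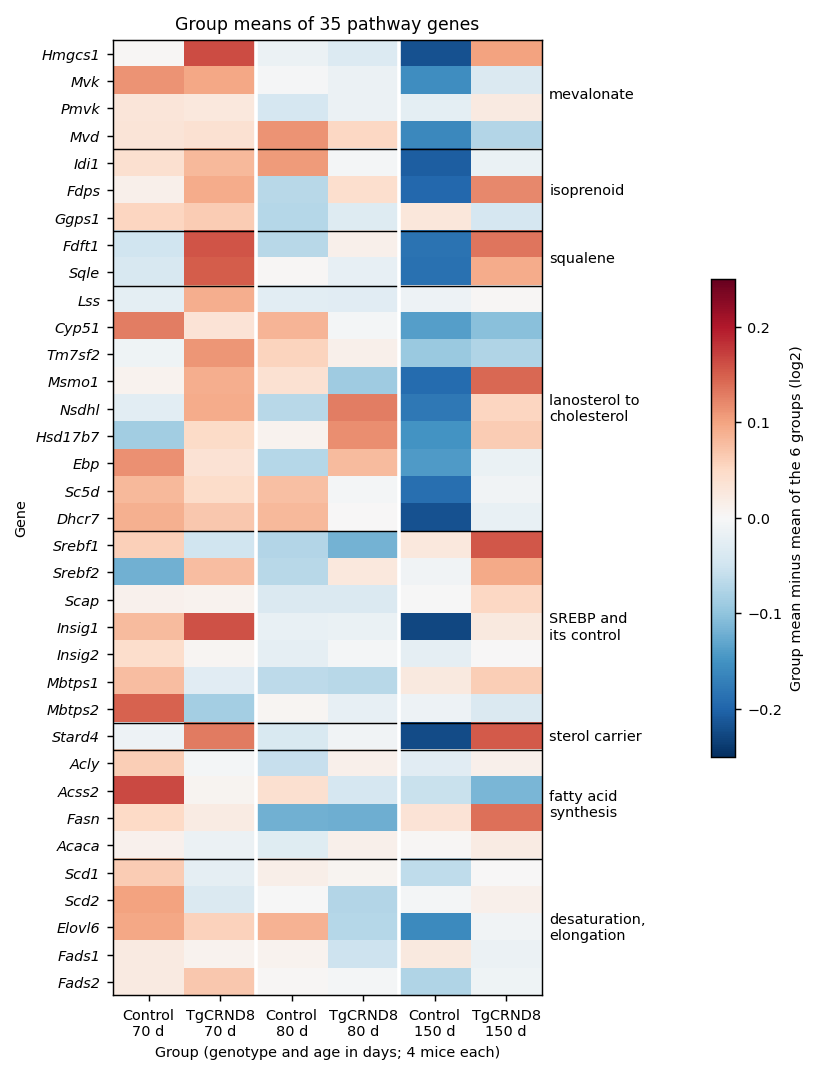
Group mean of each of the 35 genes minus the mean of the 6 groups (colour, log2), with genes in rows by step of the pathway and groups of 4 mice in columns. The control column at day 150 holds the lowest mean of 21 genes, 15 of them among the 18 sterol synthesis enzymes.

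The first enzymes of the pathway were led by Hmgcs1, the HMG-CoA synthase that joins acetyl-CoA to acetoacetyl-CoA. Its log2 signal in day 150 controls was 10.29, 10.23, 10.14 and 10.40, and in TgCRND8 10.72, 10.47, 10.53 and 10.63. The lowest TgCRND8 array lay above the highest control array. The difference was 0.32 ± 0.10 log2 (SE), or 1.25-fold, and did not pass (limma with Benjamini-Hochberg adjustment, adjusted p = 0.687). Across the younger groups its means ran from 10.45 in TgCRND8 of day 80 to 10.65 in TgCRND8 of day 70. Day 150 controls had the lowest mean (10.27 ± 0.11, SD, n = 4). The kinases and the decarboxylase that turn mevalonate into isopentenyl diphosphate differed less. At day 150 the genotype difference was 0.12 for Mvk, 0.047 for Pmvk and 0.087 for Mvd, each within 1.5 times its standard error.

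In the isoprenoid steps Fdps, the farnesyl diphosphate synthase, separated the genotypes at day 150. Controls read 7.98, 7.91, 7.98 and 7.93 and TgCRND8 8.20, 8.26, 8.20 and 8.41. No array of either group reached into the other. The difference was 0.32 ± 0.087 log2, or 1.25-fold (limma with Benjamini-Hochberg adjustment, adjusted p = 0.476). Idi1, which interconverts the isoprenoid building blocks, was higher by 0.19 ± 0.13, with controls at 7.13 ± 0.15 and TgCRND8 at 7.32 ± 0.18 (SD, n = 4). Ggps1, which branches off toward geranylgeranyl groups for protein anchoring, was the exception among the synthesis enzymes, at -0.071 ± 0.093.

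At day 150 both squalene enzymes read higher in TgCRND8, and they were also the sterol enzymes with the smallest p at day 70. Fdft1, squalene synthase, commits farnesyl diphosphate to sterols. At day 150 its controls read 9.04, 8.83, 8.87 and 8.81 and its TgCRND8 arrays 9.25, 9.16, 9.17 and 9.24, a difference of 0.32 ± 0.088 log2 (limma with Benjamini-Hochberg adjustment, adjusted p = 0.476). These groups did not overlap. At day 70 the controls read 8.89, 9.02, 9.003 and 9.18 and TgCRND8 9.28, 9.25, 9.23 and 9.15, with a difference of 0.21 ± 0.088; control replicate 4 reached into the TgCRND8 range. Averaged over the ages Fdft1 had the smallest p of the members, with a difference of 0.20 ± 0.051 and, in limma with Benjamini-Hochberg adjustment, adjusted p = 0.359. Sqle, squalene epoxidase, performs the first oxygenation of the sterol branch and is a control point of its flux. Its day 150 controls read 8.59, 8.29, 8.33 and 8.22 and TgCRND8 8.66, 8.56, 8.62 and 8.70. Control replicate 1 lay above TgCRND8 replicate 2, so the groups overlapped, and the difference was 0.28 ± 0.091. At day 70 controls read 8.58, 8.48, 8.36 and 8.60 and TgCRND8 8.75, 8.67, 8.79 and 8.58, which overlapped as well (0.19 ± 0.091). At day 80 the difference was -0.024 ± 0.091 for Sqle and 0.082 ± 0.088 for Fdft1.

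The 9 enzymes from lanosterol to cholesterol were all higher at day 150 in TgCRND8, with a median of 0.18. The differences of the first 3 were the smallest. Lss, which closes the sterol rings, differed by 0.016, Cyp51, the lanosterol demethylase, by 0.033, and Tm7sf2, a sterol reductase, by 0.017. The 3 enzymes that take the methyl groups off the sterol A ring came next and differed more. Msmo1, the methylsterol monooxygenase, read 8.96, 9.07, 9.09 and 9.20 in controls and 9.28, 9.31, 9.66 and 9.42 in TgCRND8. Its groups did not overlap, and the difference was 0.34 ± 0.10 log2, or 1.26-fold (limma with Benjamini-Hochberg adjustment, adjusted p = 0.546). Hsd17b7, the ketoreductase of the same cycle, read 6.71, 6.57, 6.74 and 6.67 in controls and 6.80, 6.85, 6.94 and 6.94 in TgCRND8, a difference of 0.21 ± 0.091 without overlap. Nsdhl, its X-linked dehydrogenase, read 7.87, 7.44, 7.50 and 7.56 in controls and 7.83, 7.83, 7.72 and 7.91 in TgCRND8. Control replicate 1 lay within the TgCRND8 range there, and the difference was 0.23 ± 0.10.

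The last desaturation and reduction showed smaller differences with overlapping arrays. Sc5d, the sterol desaturase, read 7.01, 6.84, 6.95 and 7.15 in controls and 7.05, 7.07, 7.18 and 7.37 in TgCRND8 at day 150 (0.18 ± 0.078). Dhcr7, which makes cholesterol from its immediate precursor in this route, read 6.59, 6.43, 6.84 and 6.70 in controls and 7.03, 6.80, 6.79 and 6.75 in TgCRND8 (0.20 ± 0.10). Control arrays of both genes reached into the TgCRND8 range. Ebp, the X-linked isomerase before these steps, differed by 0.13 ± 0.092. For Hsd17b7, Nsdhl, Sc5d and Dhcr7 limma with Benjamini-Hochberg adjustment gave adjusted p = 0.999.

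Stard4, a soluble carrier that moves cholesterol between membranes and is itself an SREBP2 target, had the largest difference of the 35 members at day 150. Controls read 7.07, 7.13, 7.14 and 7.15 and TgCRND8 7.44, 7.54, 7.54 and 7.47. The gap between the groups was wider than the range within either. Stard4 differed by 0.38 ± 0.088 log2 (95% interval 0.19 to 0.56), or 1.30-fold, and limma with Benjamini-Hochberg adjustment gave adjusted p = 0.136. Over all alternatives that p ranged from 0.0108 to 0.479, and Stard4 passed under 2 of them, with array weights and without the 5 arrays of low Xist. In the younger groups its mean was 7.33 and 7.31 in controls and 7.47 and 7.33 in TgCRND8 at days 70 and 80. Day 150 controls were thus the lowest group and day 150 TgCRND8 the highest.

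In all, 6 members had no overlap between genotypes at day 150 with TgCRND8 higher (Hmgcs1, Fdps, Fdft1, Msmo1, Hsd17b7 and Stard4), and 1.53% of all genes had that pattern. The opposite pattern held for 0 members, and for 1.46% of all genes.

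**Figure D2:**
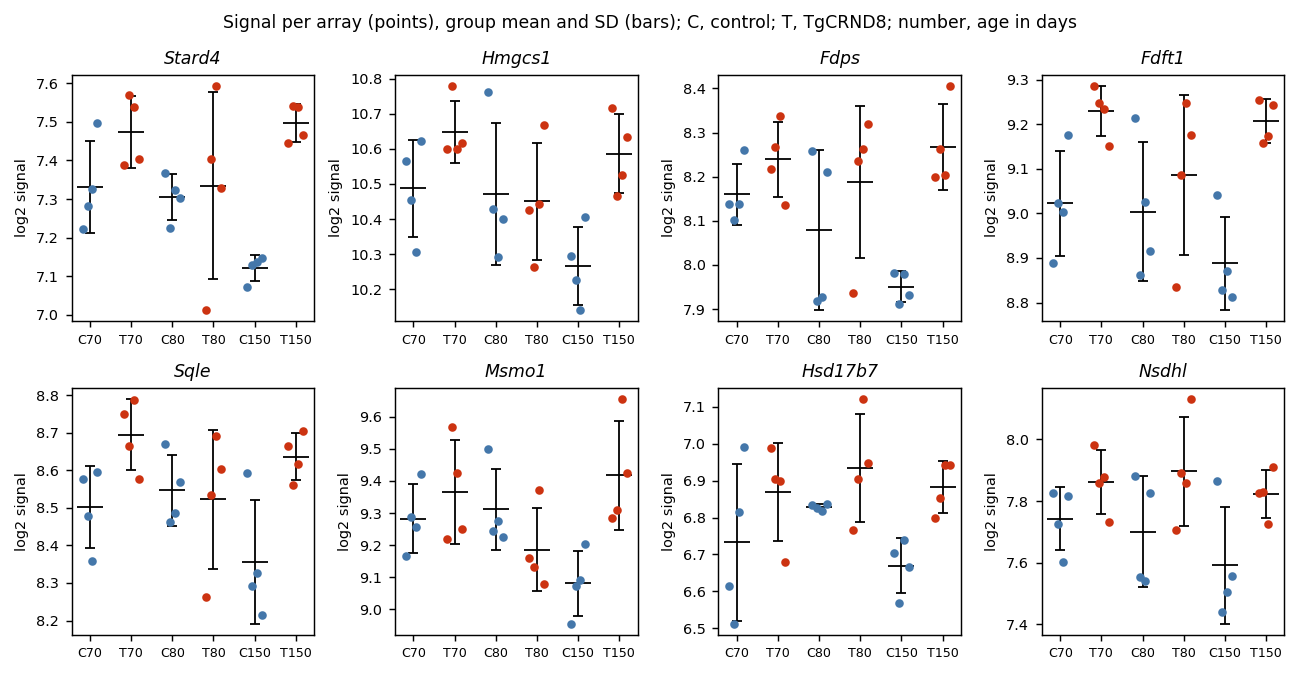
Log2 signal of single genes on each array (points), with group mean and SD (bars), for control (C) and TgCRND8 (T) mice at 70, 80 and 150 days. In Stard4 the 4 TgCRND8 arrays of day 150 lie between 7.44 and 7.54, above the 4 controls at 7.07 to 7.15.

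The regulators were mixed. Srebf2 and Srebf1 differed by about the median of all members (0.10), Insig1 by more and the others by less. Srebf2 read 7.74, 7.78, 7.75 and 7.65 in day 150 controls and 7.93, 7.81, 7.74 and 7.85 in TgCRND8 (0.10 ± 0.10), with overlap. Srebf1 read 7.45, 7.32, 7.47 and 7.40 in controls and 7.67, 7.61, 7.52 and 7.36 in TgCRND8 (0.13 ± 0.10), again with overlap. Insig1, the SREBP target that feeds back on SCAP, showed the largest difference of the 7 control genes. Its controls read 5.63, 5.36, 5.57 and 5.67 and TgCRND8 5.86, 5.75, 5.99 and 5.64, and the difference of 0.25 ± 0.13 did not pass (limma with Benjamini-Hochberg adjustment, adjusted p = 0.999). Control replicate 4 lay just above TgCRND8 replicate 4. Scap (0.053), Insig2 (0.023), Mbtps1 (0.036) and Mbtps2 (-0.023) were all within 1 standard error of 0. Signals of mRNA say nothing of how much SREBP was cleaved.

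Apart from Elovl6 and Fasn, the fatty acid genes of the SREBP1 branch differed by at most 0.064 log2 between genotypes at day 150, in the probe sets used. Scd1, a stearoyl-CoA desaturase, read 9.29, 9.31, 9.32 and 9.19 in controls and 9.24, 9.31, 9.50 and 9.31 in TgCRND8. Scd2, the desaturase most abundant in brain, read 11.99, 11.67, 11.85 and 11.96 in controls and 11.98, 11.75, 11.82 and 11.98 in TgCRND8. Both sets overlapped throughout, with differences of 0.064 ± 0.079 and 0.018 ± 0.11. Elovl6, which lengthens saturated chains, differed most of this branch, at 0.15 ± 0.078. Fasn, the fatty acid synthase, differed by 0.10 ± 0.22, and its standard error was the widest of the members. Acly, which supplies cytosolic acetyl-CoA, differed by 0.042, Acss2, which makes it from acetate, by -0.058, and Acaca, which carboxylates it, by 0.018. The polyunsaturated desaturases Fads1 and Fads2 differed by -0.040 and 0.064. The sterol enzymes were not tested against the fatty acid genes.

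**Figure D3:**
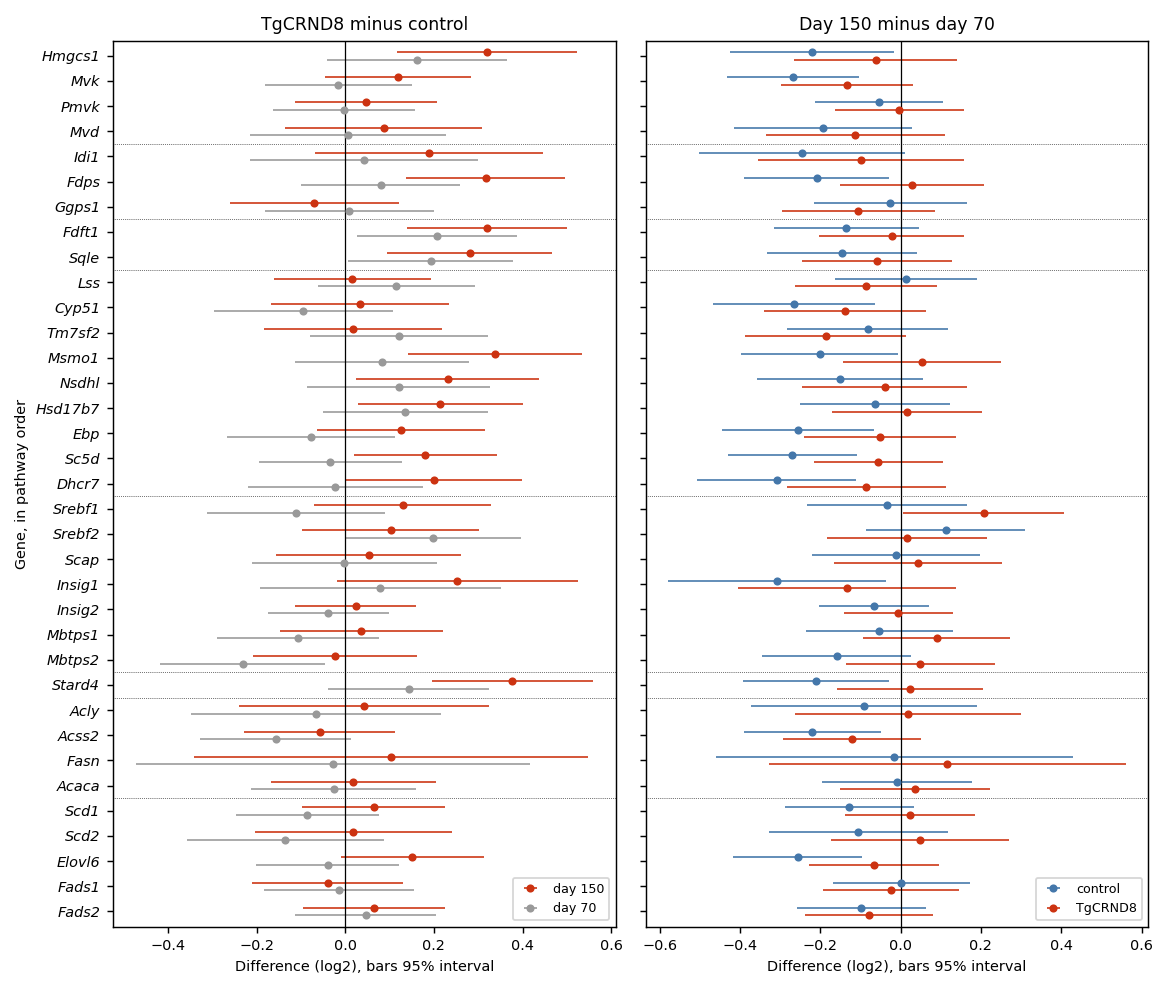
Difference of each gene in log2 with its 95% interval, TgCRND8 minus control at days 70 and 150 (left) and day 150 minus day 70 in each genotype (right), genes in pathway order. At day 150 the points of Stard4 (0.38), Msmo1 (0.34), Fdft1 (0.32), Hmgcs1 (0.32) and Fdps (0.32) lie farthest to the right.

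Further probe sets of the same genes gave the direction at day 150 less firmly. The 35 members had 48 dimmer probe sets, from 25 genes, and 30 of the 48 read higher in TgCRND8. Of the 29 with a mean log2 signal of at least 5, 21 were higher, with a median of 0.080, and 18 had the direction of the brighter set. For Stard4 the dimmer sets gave 0.50 and 0.21, for Hmgcs1 the next 3 gave 0.17, 0.16 and 0.25, and for Fdft1 the next gave 0.47. Dim Fdft1 sets, with mean log2 signals of 4.42 and 4.11, gave 0.044 and -0.056. Probe sets of other genes disagreed as well. The further sets of Elovl6 gave 0.036 and -0.055 against 0.15. The second Acss2 set, with a mean log2 signal of 5.18, gave 0.24 against -0.058. For Sc5d the second set gave -0.0091 against 0.18 and the third, with a mean log2 signal of 5.01, gave 0.17, and for Hsd17b7 0.055 and -0.013 against 0.21. The second Fdps set was dim, with a mean log2 signal of 2.61, and gave -0.063. With all sets of a gene averaged, the difference was 0.013 for Hsd17b7 and 0.13 for Fdps. Over all alternatives other than leaving out single arrays, the lowest difference was 0.20 for Fdft1, 0.20 for Msmo1 and 0.22 for Hmgcs1.

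Markers of activated microglia and reactive astrocytes also read higher in TgCRND8 at day 150, while general astrocyte and myelin markers differed little. All 6 activated microglia markers and both reactive astrocyte markers rose, with median differences of 0.81 and 1.08 log2, and their part in the result was not tested. Relative to all arrays the microglia markers averaged between -0.31 and -0.21 in controls of that age, and between 0.57 and 0.76 in TgCRND8. The general astrocyte markers differed by a median of -0.0024, with 1 of 5 higher and 0 passing. The 9 measured myelin markers, among them Mbp and Mog, differed by a median of 0.022, with 6 of 9 higher and 0 passing. Their mean lay between -0.19 and -0.087 in controls and between -0.18 and -0.059 in TgCRND8. Without TgCRND8 replicate 4 of day 150, the array with high pituitary markers, 30 of 35 members were still higher, with a median of 0.093.

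At day 70 16 of 35 members read higher in TgCRND8 (48.7% of all genes), with a median of -0.0034, and the steps of the pathway differed in direction. The sterol synthesis enzymes were higher in 12 of 18 cases, with a median of 0.061, the fatty acid synthesis genes in 0 of 4 (-0.048) and the desaturation and elongation genes in 1 of 5 (-0.039). By limma with Benjamini-Hochberg adjustment 0 members and 0% of all genes passed. At unadjusted p under 0.05 there were 3 members, where 3.25% of all genes were: Fdft1 and Sqle, given above, and Mbtps2. Mbtps2, the X-linked site-2 protease, read 6.93, 6.91, 6.94 and 7.14 in controls and 6.61, 6.99, 6.67 and 6.73 in TgCRND8, a difference of -0.23 ± 0.090. TgCRND8 replicate 2 lay above 3 of the 4 controls. Srebf2 differed by 0.20 ± 0.10 at this age and Srebf1 by -0.11 ± 0.10. No member separated the genotypes at day 70 in either direction, a pattern that 1.1% of all genes had upward and 1.26% downward.

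At day 80 the members also showed no shift in one direction. In TgCRND8 14 of 35 were higher (50.9% of all genes), with a median of -0.0062, and 0 passed by limma with Benjamini-Hochberg adjustment, as for all genes (0%). At unadjusted p under 0.05 there were 0 members and 3.77% of all genes. Of the 3 members with the smallest p, Elovl6 read 8.33, 8.18, 8.27 and 7.87 in controls and 8.08, 8.002, 8.0002 and 7.94 in TgCRND8 (-0.16 ± 0.078). Nsdhl read 7.88, 7.55, 7.54 and 7.83 in controls and 7.71, 7.89, 7.86 and 8.13 in TgCRND8 (0.20 ± 0.10). Ebp read 6.29, 6.22, 6.30 and 6.17 in controls and 6.28, 6.27, 6.52 and 6.51 in TgCRND8 (0.15 ± 0.092). All 3 overlapped between genotypes. Day 80 holds 4 of the 5 arrays with low Xist, and without the 5 the difference of Nsdhl was 0.46 and that of Elovl6 -0.26. The count of higher members was then 21 of 35. No member separated the genotypes (0.846% of all genes upward and 0.401% downward).

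Day 150 controls had lower signals than younger controls for most members. Against day 70, 3 of 35 members were higher, where 48.8% of all genes were, and the median difference was -0.14 log2 against -0.0034 over all genes. For the 18 sterol synthesis enzymes the median was -0.20 and 1 was higher, Lss. By limma with Benjamini-Hochberg adjustment 0 members passed, and 0.022% of all genes. At unadjusted p under 0.05 there were 12 lower members, against 4.41% of all genes, and 0 higher, against 3.58%. Without the 5 arrays of low Xist, 1 of them control replicate 4 of day 70, 6 of 35 members were higher, with a median of -0.11. Leaving out only that replicate also gave 6 of 35, and quantile normalization gave 8 of 35. The same replicate had the highest mean over the 35 members in its group (0.14 relative to all arrays). Its low Xist and its high member signal cannot be told apart here.

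The 4 members with the smallest p in that comparison came from different steps. Sc5d read 7.32, 7.18, 7.24 and 7.29 at day 70 and 7.01, 6.84, 6.95 and 7.15 at day 150, without overlap (-0.27 ± 0.078). Mvk, mevalonate kinase, read 7.02, 7.09, 7.01 and 7.05 at day 70 and 6.65, 6.88, 6.86 and 6.70 at day 150, without overlap (-0.27 ± 0.080). Elovl6 read 8.18, 8.21, 8.15 and 8.15 at day 70 and 7.89, 7.95, 7.80 and 8.03 at day 150, also without overlap (-0.26 ± 0.078). Dhcr7 alone of these overlapped. It read 6.99, 6.87, 6.75 and 7.19 at day 70 and 6.59, 6.43, 6.84 and 6.70 at day 150 (-0.31 ± 0.10). Limma with Benjamini-Hochberg adjustment gave adjusted p = 0.473 for the first 3 and 0.496 for Dhcr7. In all, 7 members lay lower at day 150 without overlap, against 2.53% of all genes: Mvk, Fdps, Sc5d, Insig1, Stard4, Scd1 and Elovl6.

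Against day 80 controls most sterol enzymes again read lower at day 150. Of 35 members 11 were higher (49.6% of all genes), with medians of -0.16 for the 18 sterol synthesis enzymes, 0.031 for fatty acid synthesis and -0.077 for desaturation and elongation. By limma with Benjamini-Hochberg adjustment 0 members and 0% of all genes passed, and at unadjusted p under 0.05 10 members were lower (1.81% of all genes). There were 8 without overlap and lower, against 1.29% of all genes: Mvd, Idi1, Cyp51, Msmo1, Hsd17b7, Sc5d, Insig1 and Stard4. These comparisons share the 4 day 150 control arrays with the genotype comparison at that age, so the low signal of those arrays enters all of them. Day 150 controls had the lowest group mean for 21 of the 35 members, where 18.8% of all genes had theirs there. Among the sterol synthesis enzymes that was 15 of 18, the others being Pmvk, Ggps1 and Lss, and among the fatty acid genes 3 of 9.

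Myelin markers were lower with age in the same control arrays. All 9 measured were lower at day 150 than at day 70, with a median difference of -0.30, and Mog, Mal and Ugt8a fell by limma with Benjamini-Hochberg adjustment (adjusted p = 0.0409, 0.0165 and 0.0165). With only the arrays of the 2 groups compared, 0 myelin markers passed. Leaving out single arrays of either group gave 0 to 2 passing, with 0 without control replicate 4 of day 70 and 0 without control replicate 2 or 4 of day 150, while at least 8 of 9 markers stayed lower. Relative to all arrays they averaged between 0.16 and 0.26 in controls of day 70, between 0.012 and 0.084 in those of day 80 and between -0.19 and -0.087 in those of day 150. No range of these 3 overlapped another, and the part of myelin or of oligodendrocytes in the lower sterol signal was not tested. In TgCRND8 the myelin mean lay between -0.13 and 0.091 at day 70, -0.18 and 0.047 at day 80, and -0.18 and -0.059 at day 150. At day 150 the myelin ranges of the genotypes overlapped, and the part of myelin in the genotype difference of the sterol enzymes was not tested.

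**Figure D4:**
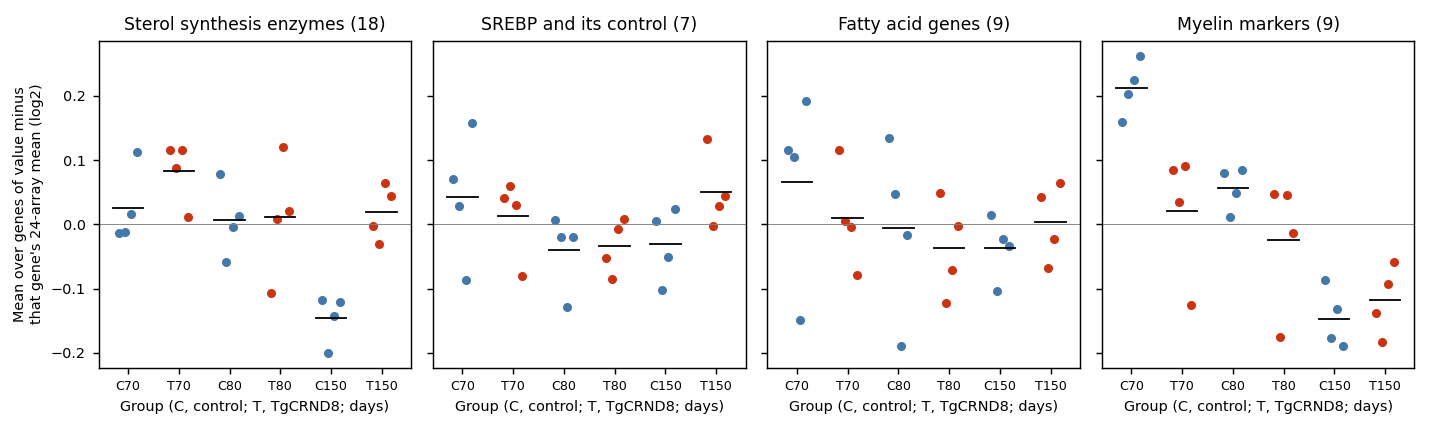
Mean over the genes of a list of each array's value minus that gene's mean over 24 arrays (log2, points are arrays), for the 18 sterol synthesis enzymes, 7 SREBP control genes, 9 fatty acid genes and 9 myelin markers in control (C) and TgCRND8 (T) mice at 70, 80 and 150 days. For the sterol enzymes the day 150 controls lie between -0.20 and -0.12 and the day 150 TgCRND8 arrays between -0.030 and 0.064; the myelin markers are low in both.

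The array means of the 18 sterol enzymes show the low signal of day 150 controls in single mice. Day 150 controls read -0.12, -0.20, -0.14 and -0.12 relative to all arrays, and day 150 TgCRND8 -0.0023, -0.030, 0.064 and 0.045. Younger controls ranged from -0.014 to 0.11 at day 70 and from -0.059 to 0.078 at day 80, and TgCRND8 from 0.012 to 0.12 and from -0.11 to 0.12. The day 150 TgCRND8 arrays thus lay within the range of the younger mice, and every day 150 control lay below every other array of the series. The 7 SREBP control genes did not show this: controls of day 150 lay between -0.10 and 0.023 and TgCRND8 between -0.0020 and 0.13. The 9 fatty acid genes did not either, with controls between -0.10 and 0.015 and TgCRND8 between -0.069 and 0.064.

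In TgCRND8 mice the members differed little between day 70 and day 150. Of 35, 14 were higher (48.8% of all genes), with a median of -0.024, and by limma with Benjamini-Hochberg adjustment 0 passed, against 0.0879% of all genes. At unadjusted p under 0.05 there was 1 member, Srebf1, against 2.64% of all genes. Srebf1 read 7.56, 7.29, 7.44 and 7.04 at day 70 and 7.67, 7.61, 7.52 and 7.36 at day 150, with overlap (0.21 ± 0.10). At day 80 it read 7.29, 7.13, 7.30 and 7.34, below every day 150 array (0.27 ± 0.10; limma with Benjamini-Hochberg adjustment, adjusted p = 0.623). It was the 1 member without overlap upward in that comparison, against 1.1% of all genes. The next in order of p from day 70 to day 150 were lower. Tm7sf2 went from 7.18, 6.90, 6.90 and 7.06 to 6.75, 6.91, 6.86 and 6.78 (-0.19 ± 0.10). Mvk went from 7.06, 6.97, 6.92 and 7.15 to 6.82, 6.98, 6.87 and 6.89 (-0.13 ± 0.080), and Acss2 from 7.63, 7.50, 7.51 and 7.42 to 7.44, 7.34, 7.33 and 7.47 (-0.12 ± 0.083). All of these overlapped between ages. Ggps1 was the 1 member without overlap, lower at day 150, against 1.27% of all genes.

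Whether the genotype difference at day 150 exceeded the mean of those at days 70 and 80 was tested as an interaction. The change was above 0 for 30 of 35 members (50.5% of all genes), with a median of 0.11, and by limma with Benjamini-Hochberg adjustment 0 passed, against 0.011% of all genes. At unadjusted p under 0.05 there were 7 members upward, against 2.28% of all genes, and 0 downward, against 3.48%. Msmo1 led with 0.36 ± 0.12 (limma with Benjamini-Hochberg adjustment, adjusted p = 0.743). At day 70 Msmo1 read 9.17, 9.29, 9.26 and 9.42 in controls and 9.22, 9.57, 9.42 and 9.25 in TgCRND8, and at day 80 9.50, 9.24, 9.28 and 9.23 and 9.16, 9.13, 9.37 and 9.08, with overlap at both ages. Its genotype difference was 0.082 at day 70, -0.13 at day 80 and 0.34 at day 150. Stard4 followed with 0.29 ± 0.11, from differences of 0.14, 0.029 and 0.38. Its arrays read 7.22, 7.28, 7.32 and 7.50 in controls and 7.39, 7.57, 7.54 and 7.40 in TgCRND8 at day 70, and 7.37, 7.23, 7.32 and 7.30 and 7.01, 7.40, 7.59 and 7.33 at day 80, again with overlap. Elovl6 gave 0.25 ± 0.10 and Sc5d 0.24 ± 0.10, and in the probe sets used both had differences below 0 at days 70 and 80. Their further probe sets were mixed at day 80, with -0.019 and 0.079 for Elovl6 and 0.030 and -0.097 for Sc5d. In TgCRND8 Elovl6 read 8.19, 8.08, 8.13 and 8.14 at day 70 and 8.14, 8.01, 8.04 and 8.08 at day 150, with overlap. Sc5d read 7.23, 7.18, 7.25 and 7.24 in TgCRND8 of day 70, and at day 80 7.33, 7.30, 7.18 and 7.21 in controls and 7.20, 7.31, 7.12 and 7.06 in TgCRND8. For Fdft1 the differences were 0.21, 0.082 and 0.32, and the change was 0.18 ± 0.11. Averaged over the ages, 25 of 35 members were higher in TgCRND8 (49% of all genes), 0 passed by limma with Benjamini-Hochberg adjustment (0.0385% of all genes), and at unadjusted p under 0.05 there were 8 higher (1.71%) and 1 lower (1.45%).

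Genes around the pathway were read from a list of 47, of which 42 were measured. At day 150 31 of the 42 were higher in TgCRND8, against 50.1% of all genes, with a median of 0.047, and 0 passed by limma with Benjamini-Hochberg adjustment. There were 5 higher at unadjusted p under 0.05, against 1.97% of all genes, and 0 lower, against 2.4%. Dhdds, a subunit of the enzyme that makes dolichol for protein glycosylation from farnesyl diphosphate, read 6.77, 6.65, 6.75 and 6.77 in controls and 6.99, 7.04, 6.90 and 6.99 in TgCRND8. Those groups did not overlap, and the difference was 0.25 ± 0.065 (limma with Benjamini-Hochberg adjustment, adjusted p = 0.347). Acacb, the acetyl-CoA carboxylase of the mitochondrial outer membrane, read 4.01, 3.70, 3.76 and 3.93 in controls and 4.16, 4.52, 4.34 and 4.04 in TgCRND8 (0.41 ± 0.12). Tmem97, a sterol-regulated membrane protein, read 4.57, 4.22, 4.80 and 4.80 in controls and 4.89, 4.79, 4.88 and 5.02 in TgCRND8 (0.29 ± 0.10). The Acacb arrays did not overlap between genotypes, and those of Tmem97 overlapped narrowly. Npc2, which binds cholesterol in the lysosome, read 8.55, 8.46, 8.54 and 8.52 in controls and 8.56, 8.61, 8.78 and 8.80 in TgCRND8 (0.17 ± 0.075). By group, 9 of 13 genes of sterol storage, conversion and efflux were higher (median 0.059), as were 4 of 8 of the isoprenoid branch (0.0060), 7 of 7 that act at the endoplasmic reticulum (0.041) and 11 of 14 other lipid synthesis targets and cofactors (0.056). From day 70 to day 150 in controls 13 of the 42 were higher, against 48.8% of all genes, with a median of -0.051, and 0 passed by limma with Benjamini-Hochberg adjustment. There were 1 higher and 2 lower at unadjusted p under 0.05, shares near the 3.58% and 4.41% of all genes.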

How the data were processed

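RNA of 24 forebrains was extracted with TRIzol, cleaned on columns, converted to biotin-labelled RNA by in vitro transcription and hybridised to Affymetrix mouse arrays, per the labels' protocols. The authors deposited log2 signals for 45101 probe sets, which were used without further transformation; how they were normalized is not stated in the labels or files used here. Of 45037 probe sets that were no array controls, 34945 carried 1 symbol, 932 several and 9160 none in the platform annotation. Per gene the brightest single-symbol probe set was kept (18193 genes). Limma 3.58.1 in R 4.3.3 fitted 6 group means over all 24 arrays (lmFit, eBayes), with Benjamini-Hochberg adjustment over all genes; it was checked on simulated arrays. Python 3.11.15 and matplotlib 3.10.9 gave counts, promoter searches and figures. Samples were grouped by the labels' genotype and age. Array values are given for members with the smallest p: 10 at day 150, 3 at days 70 and 80, 4 for day 150 against day 70 in controls, 4 in TgCRND8, 4 for the change of the difference, and for Srebf1, Srebf2, Insig1, Scd1 and Scd2. The other pathway genes named are those with the 4 smallest p at day 150. Pairing by the labels' replicate numbers was checked on deviations from group means. At day 150 all 4 pairs of the same number correlated above 0.1 (r from 0.14 to 0.26) and 0 of 12 pairs of different number did. At days 70 and 80 this held for 2 and 3 of 4 pairs of the same number. The labels do not say what a number shares. The main fit, which gave the differences, standard errors and p above, did not use pairing at any age. Replicate number entered only as a block in alternatives. Members and lists were chosen with earlier results of these data known. Alternatives were other scalings, probe set choices, filters, variance models, covariates and left-out arrays. With 4 mice per group, small differences cannot be told from the spread. No depth applies to arrays.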

Additional observations from a re-analysis of the deposited data

Results flagged for a closer look

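Within groups of 4 mice, 8 of the 234 sets of values examined had a single array far from the other 3 by Dixon's criterion (3.42%); chance alone flags about 1 in 20 such groups. No explanation was tested for any of them. In day 70 controls, replicate 4 read high for Insig1 at 6.18 log2, with the next array at 5.80, and for Mbtps2 at 7.14, with the next at 6.94. Replicate 3 of the same group read low for Acaca at 6.89, with the next at 7.39. In day 70 TgCRND8 mice Hmgcs1 was high in replicate 2 at 10.78 (next 10.62) and Acly in replicate 1 at 9.11 (next 8.80). In day 80 TgCRND8 mice Tm7sf2 was low in replicate 1 at 6.62 (next 6.97) and Mbtps2 in replicate 2 at 6.76 (next 6.83). The mean of all 35 members was low in replicate 2 of the day 150 TgCRND8 mice, at -0.028 relative to all arrays with the next at 0.038.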

How the results depend on the processing

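Of 1490 alternative values of 72 results, 1415 were counted as unchanged. For a single member this meant the same direction and side of the threshold, and for a count within 1.5 times. For a median over members it meant a shift under 0.056 log2, even across 0. Medians near 0 did cross it, as for the genotype difference at day 70 (-0.0034, alternatives from -0.026 to 0.036) and day 80 (-0.0062, from -0.046 to 0.023). By these rules 0 reversed, though a count could not be called reversed. Of 574 alternatives for single members, 2 passed, both for Stard4 at day 150. Quantile normalization gave 22 higher members for the genotype difference at day 80, 8 for controls of day 150 against day 70 and 15 for controls of day 80 against day 70; median centring gave 11 for the last. With array weights 1 member passed at day 150. Without the 5 arrays of low Xist, an alternative chosen after seeing the data, 1 member passed at day 150 and 1 for the mean over ages, and 6 members were higher in controls of day 150 against day 70; genes passing over all were 35 at day 80 and 322 for TgCRND8 of day 150 against day 80, where the main counts were 0 and 4. Leaving out single arrays gave 3 to 6 higher members for controls of day 150 against day 70. The 6 came without control replicate 4 of day 70, the low-Xist array of that group, and so repeats the 6 without low-Xist arrays. For controls of day 80 against day 70 it gave 6 to 16, with 16 without that same array. For the genotype difference at day 150 it gave 28 to 30 higher members and medians of 0.073 to 0.11, against 31 and 0.10, and 12 to 20 genes passing over all, against 22. The cause of these shifts was not tested. For the pairing by replicate number, a replicate block over all arrays gave 0 members passing at day 150 and a median of 0.10, and the genes passing over all were 4 for the change of the genotype difference, 7 for controls of day 150 against day 70 and 9 for TgCRND8 of day 150 against day 80, against 2, 4 and 4. A replicate block within day 150, added after seeing the data, gave 31 of 35 members higher, 0 passing, and 32 genes passing over all. Neither block changed the call of a member. Signals near the dim end, such as Tmem97 and Acacb, and 4 mice per group limit what could be detected.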
